A study of Homo sapiens with 4 samples.

Results

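The caveola coat genes described here were 8 genes named by a list of caveolins, cavins and caveola-associated proteins: CAV1, CAV2, CAVIN1, CAVIN2, CAVIN3, EHD2, PACSIN2 and PACSIN3. The list was chosen on the readout, because CAV1 and CAVIN1 were over 2-fold lower with siEfp in both cell lines, so the siEfp values below are a description and carry no test. Of the 8 genes, 7 had a probe set of their own among 18417 measured genes. The probe set that holds CAV2 is listed for another gene as well, so no value is given for CAV2. RNA came from 2 human endometrial cancer lines. Ishikawa cells are ERα-positive and derive from a well-differentiated tumour, and HEC-1A cells are ERα-negative and derive from a moderately differentiated one. Each line was transfected with siControl, a non-targeting duplex, or with siEfp, a duplex against the ubiquitin ligase Efp (gene TRIM25). The Ishikawa arrays carried siEfp #A for 48 h, while no source used here gives the duplex or the time of the HEC-1A arrays. Each of the 4 combinations was measured on 1 Affymetrix array with 150 ng of total RNA, so differences between siRNAs have no replicate check, and effects of losing Efp and of the duplex on other transcripts cannot be told apart. In these bulk RNA samples a change in RNA per cell and a change in the mix of cells cannot be told apart either.

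Caveolae are small flask-shaped pits of the plasma membrane, abundant in adipocytes, endothelium and muscle, that take part in lipid handling, signaling and the buffering of membrane stretch. Caveolins are hairpin proteins that oligomerize in cholesterol-rich membrane, and CAV1 is needed for caveolae outside muscle. Cavins form a peripheral coat around them, for which CAVIN1 is essential and CAVIN2 and CAVIN3 are partners of CAVIN1. At the neck, the ATPase EHD2 holds the pit at the surface, and the F-BAR proteins PACSIN2 and PACSIN3 bind and bend the membrane.

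The promoter sequence of some members is shown for context, since CAV1 was lower with siEfp in both lines, CAVIN2 differed little and PACSIN2 was higher in one line only. RefSeq promoter entries matched 5 of the 8 members, and CAVIN1, CAVIN3 and PACSIN3 had none. Each line gives the 100 bases before the annotated gene start in GRCh38.p14, 5′ to 3′ on the gene's strand, with the GC box letters GGGCGG, on either strand, in capitals. The windows are chr7:116524909-116525008 on the plus strand for CAV1, chr2:191847089-191847188 on the minus strand for CAVIN2, and chr22:43015150-43015249 on the minus strand for PACSIN2.
CAV1: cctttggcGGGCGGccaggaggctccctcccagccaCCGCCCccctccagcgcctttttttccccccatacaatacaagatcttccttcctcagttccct
CAVIN2: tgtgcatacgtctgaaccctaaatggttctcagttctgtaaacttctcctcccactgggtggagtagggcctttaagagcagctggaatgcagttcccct
PACSIN2: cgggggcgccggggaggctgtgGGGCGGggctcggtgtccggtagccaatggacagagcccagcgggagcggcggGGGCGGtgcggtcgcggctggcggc

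GC boxes were matched 2 times in the CAV1 window, 2 times in that of PACSIN2 and 0 times in that of CAVIN2, and also 2 times for CAV2 and 1 time for EHD2, while 31.3% of 35116 RefSeq windows of this length held at least 1. The GC share was 62% for CAV1, 50% for CAVIN2 and 81% for PACSIN2, against a median of 60% over all windows. The letters TATAAA and TGANTCA and the κB consensus were matched in none of the windows of the 5 members with an entry, and they occur in 4.99%, 2.75% and 2.02% of all windows. CCAAT was matched 1 time, in PACSIN2, and occurs in 18.1% of windows. A match is only a run of letters, and the arrays measured no binding at these promoters.

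TRIM25 mRNA, the siRNA target, was lower after siEfp than after siControl in either line, as labelled. Its log2 signal was 9.42 with siControl and 7.96 with siEfp in Ishikawa cells, and 9.50 and 7.93 in HEC-1A cells. ESR1, the gene for ERα, had signals of 6.91 and 6.65 in Ishikawa cells against 4.45 and 4.77 in HEC-1A cells, the direction of the labelled receptor status. Of 5 epithelial markers, none had a mean signal under the all-gene median, although CDH1, which encodes E-cadherin, had signals of 10.22 and 9.62 in Ishikawa but only 4.07 and 3.74 in HEC-1A cells. The 5 endothelial and 5 adipocyte markers, of cell types rich in caveolae, were all below that median, with signals between 3.14 and 6.17 and between 2.52 and 5.43, and 5 of 6 fibroblast markers were below it too, in a list whose signals lay between 2.79 and 7.40. The median signals of the arrays lay between 5.63 and 5.69.

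CAV1 and CAVIN1, the 2 core coat genes, were over 2-fold lower with siEfp in both lines, as the rule asked, and none of the other 5 measured members was in either line. CAV1 (probe set 8135594) had log2 signals of 9.53 with siControl and 8.34 with siEfp in Ishikawa cells, and of 11.24 and 9.98 in HEC-1A cells. The differences were -1.20 and -1.26 on the log2 scale, or 2.29-fold and 2.39-fold lower. The siEfp array of HEC-1A cells was still brighter for CAV1 than the siControl array of Ishikawa cells. CAVIN1 (probe set 8015635) went from 5.86 to 4.76 in Ishikawa cells and from 8.06 to 6.64 in HEC-1A cells. The differences were -1.10 and -1.42, or 2.14-fold and 2.67-fold lower, and again both HEC-1A arrays lay above both Ishikawa arrays. Both Ishikawa signals of CAVIN1 were below 6.31, the median of all genes' mean signals, and differences between dim signals tend to be understated after RMA. Over all genes, the middle 95% of siEfp differences ran from -0.70 to 0.51 in Ishikawa and from -0.55 to 0.49 in HEC-1A cells.

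**Figure D1:**
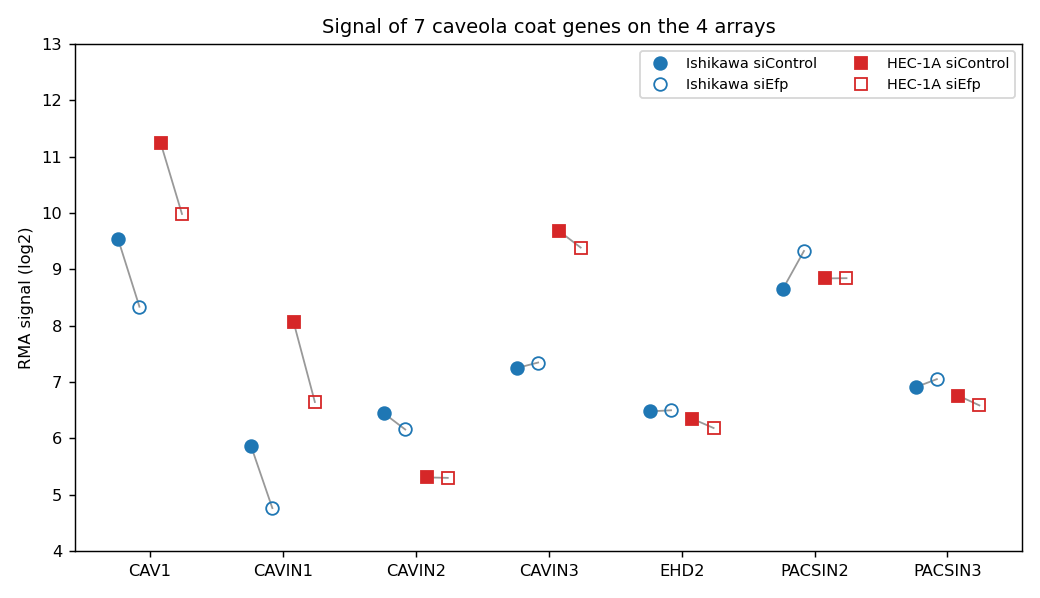
RMA signal (y axis, log2) of the 7 measured caveola coat genes (x axis), with 1 array per point. Circles are Ishikawa and squares HEC-1A cells, filled for siControl and open for siEfp, and grey lines join the arrays of a line. CAV1 and CAVIN1 are lower with siEfp in both lines and, like CAVIN3, higher in HEC-1A cells. Signals of different genes are not on a shared scale.

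The other cavins did not follow CAVIN1 in size. CAVIN2, which helps to curve the caveolar membrane, had signals of 6.44 and 6.16 in Ishikawa cells with siControl and siEfp, and of 5.31 and 5.30 in HEC-1A cells. Its differences of -0.29 and -0.01 lay within the middle 95% of genes. CAVIN3, a cavin that also binds protein kinase C delta, had signals of 7.25 and 7.34 in Ishikawa and of 9.67 and 9.39 in HEC-1A cells, with differences of 0.10 and -0.29. At the 2-fold threshold of the rule, a log2 difference of -1, the value just inside was that of CAVIN1 in Ishikawa cells at -1.10, and the nearest outside were CAVIN2 in Ishikawa and CAVIN3 in HEC-1A cells, both at -0.29.

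The neck proteins differed little or were higher. EHD2 had signals of 6.48 and 6.50 in Ishikawa and of 6.35 and 6.18 in HEC-1A cells, with differences of 0.02 and -0.16. PACSIN2 was brighter with siEfp in Ishikawa cells, at 9.33 against 8.65, a difference of 0.68 or 1.60-fold. In HEC-1A cells PACSIN2 was at 8.84 on both arrays. PACSIN3, the form typical of muscle, had signals of 6.91 and 7.05 in Ishikawa and of 6.76 and 6.58 in HEC-1A cells, with differences of 0.14 and -0.17. Of these values only the Ishikawa difference of PACSIN2 lay outside the middle 95% of genes.

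Counted at 2-fold, 2 of the 7 members were lower with siEfp in Ishikawa cells, where 0.804% of all genes were. In HEC-1A cells 2 of 7 were lower, beside 0.271% of all genes, and the same 2 were lower in both lines, beside 0.174%. The rule used these contrasts, so nothing is read from the counts. The median difference of the 7 members was 0.02 in Ishikawa and -0.17 in HEC-1A cells, against 0.01 over all genes in each line. In HEC-1A cells 6 of the 7 had a value below 0 and in Ishikawa cells 3 had, beside 8790 and 8772 of 18417 genes.

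**Figure D2:**
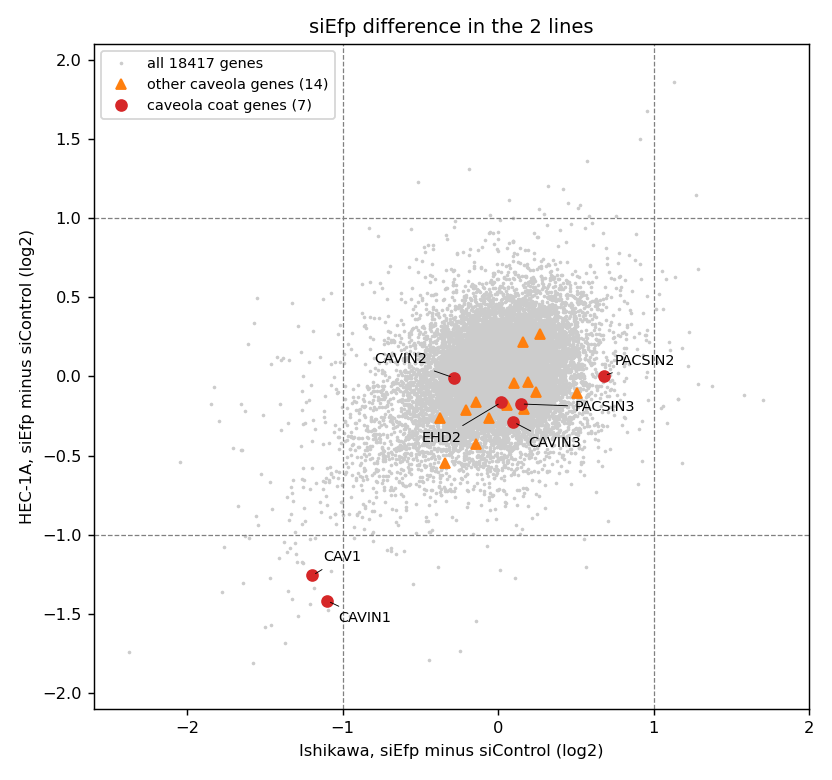
Difference of log2 signal between siEfp and siControl in Ishikawa (x axis) and HEC-1A cells (y axis), 1 array per condition. Grey points are all 18417 genes, red circles the 7 caveola coat genes and orange triangles 14 other caveola genes, and dashed lines mark 2-fold. CAV1 at -1.20 and -1.26 and CAVIN1 at -1.10 and -1.42 lie past 2-fold on both axes, away from the other members.

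The siEfp effect of the members was set against itself in the 2 lines, as HEC-1A minus Ishikawa, without a test since each effect rests on 1 pair of arrays. The rule picked CAV1 and CAVIN1 as lower in both lines, which bears on their gap, so nothing is read from the order of members. The siEfp effect differed least for CAV1, by -0.06. The values were -0.32 for CAVIN1, 0.28 for CAVIN2, -0.39 for CAVIN3, -0.18 for EHD2 and -0.32 for PACSIN3. PACSIN2 had the widest gap of the 7, at -0.68, just outside the middle 95% of all genes, from -0.63 to 0.66.

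The rule did not use the level between lines, and here 3 coat genes were higher in HEC-1A cells. For CAV1 and CAVIN1, picked as lower in both lines, the rule does bear on the spread that the test below uses. The comparison was fitted with limma over all genes with siRNA as a block, so that the 2 arrays of a line, given different siRNAs, stood in as replicates. CAV1 was 3.20-fold higher in HEC-1A than in Ishikawa cells, a log2 difference of 1.68 ± 0.12 (SE, 2 arrays per line, limma adjusted p = 0.000119). Among the siControl arrays it was 1.71 and among the siEfp arrays 1.65. CAVIN1 was 4.12-fold higher, by 2.04 ± 0.14 (SE, adjusted p = 8.3e-05), with 2.20 among siControl and 1.88 among siEfp arrays. CAVIN3 was 4.70-fold higher, by 2.23 ± 0.14 (SE, adjusted p = 6.88e-05), with 2.43 and 2.04. For each of these genes both HEC-1A arrays lay above both Ishikawa arrays.

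CAVIN2 ran the other way. It was lower in HEC-1A cells by a log2 difference of -0.998 ± 0.132 (SE, limma adjusted p = 0.00161), with -1.14 among the siControl and -0.86 among the siEfp arrays, and its Ishikawa arrays lay above its HEC-1A arrays. The mean signal of CAVIN2 was below the median of all genes. The 3 neck proteins did not pass the test. The difference was -0.22 for EHD2 (95% interval -0.52 to 0.08, limma adjusted p = 0.232), -0.31 for PACSIN3 (-0.63 to 0.02, adjusted p = 0.133) and -0.15 for PACSIN2 (-0.57 to 0.28, adjusted p = 0.606). For PACSIN2 the sign turned with the siRNA, at 0.19 among siControl and -0.48 among siEfp arrays.

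**Figure D3:**
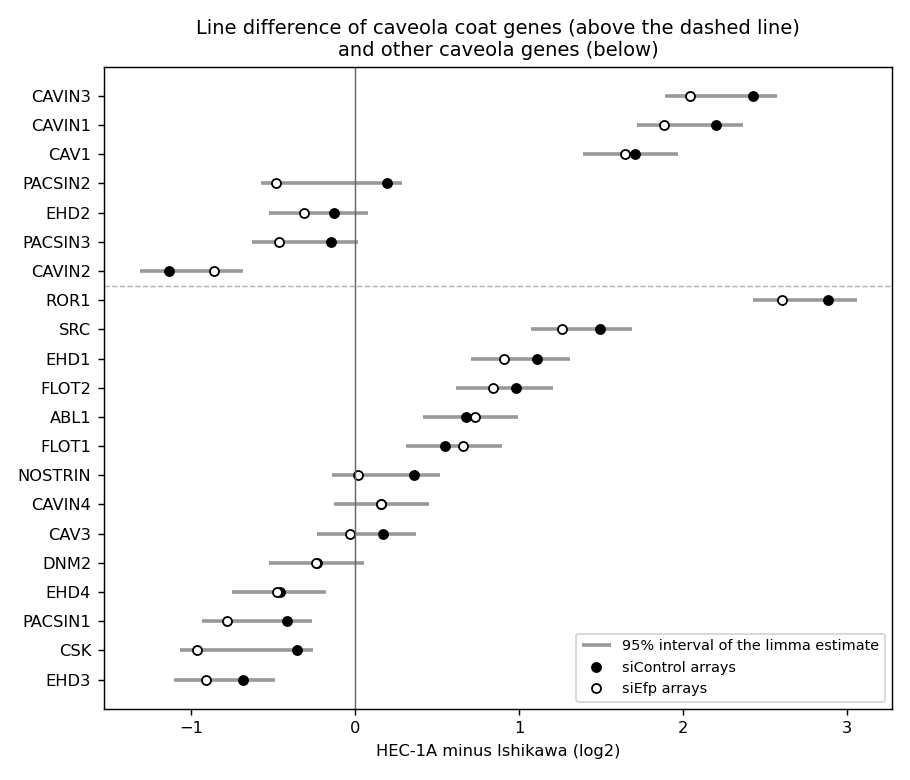
Log2 difference between HEC-1A and Ishikawa cells (x axis) for 7 caveola coat genes, above the dashed line, and 14 other caveola genes, below it. Filled circles are siControl arrays, open circles siEfp arrays, 1 array of each line for each, and grey bars are 95% intervals of the limma estimate. CAVIN3, CAVIN1 and CAV1 lie between 1.65 and 2.43 and CAVIN2 between -1.14 and -0.86.

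Of the 7 members, 4 passed the limma test between the lines, beside 35.2% of all genes, and 3 were higher in HEC-1A cells, beside 18.3%. In a fit limited to genes of at least the median signal, 3 of 6 members passed, beside 5317 of 9209 genes. CAVIN1, among those that passed, was kept in that fit only through its HEC-1A signals of 8.06 and 6.64. Its Ishikawa signals of 5.86 and 4.76 were under the cut of 6.31. At least 2-fold under both siRNAs were 3 of 7, all higher in HEC-1A cells, beside 9.53% of all genes in either direction. The median size of the log2 difference was 0.998 over the members and 0.25 over all genes. The fit has 1 residual degree of freedom, which is the gap between the siEfp effects of the lines, and the rule bears on that gap for CAV1 and CAVIN1, which were picked as lower in both lines. Nothing in the labels says that the arrays of a line came from separate cultures, so the p-values take in no spread beyond these arrays. The SE and adjusted p rest mostly on a variance that limma shares over all genes. That shared part supplied 5.54 of 6.54 degrees of freedom, so they are not each gene's own spread. Without the siRNA block the siEfp difference counts as spread, and the adjusted p of CAV1 was 0.0565. Most of the epithelial markers differed between the lines too. Of the 5, 4 were lower in HEC-1A cells by the same test, beside 3124 of 18417 genes. The log2 differences were -6.02 for CDH1, -4.08 for EPCAM, -1.25 for KRT19 and -1.23 for KRT8, against 0.01 for KRT18. The mean log2 signal over the 5 was 11.18 and 10.91 in Ishikawa against 8.66 and 8.40 in HEC-1A cells. The part of these markers in the caveola gene values was not tested.

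Among other genes of the caveola, none differed 2-fold with siEfp, while several differed between the lines. Over all genes only 0.804% were 2-fold lower in Ishikawa and 0.271% in HEC-1A cells, so nothing is read from that absence. The list holds 15 genes, of which 14 were measured and FLNA had no probe set of its own. With siEfp 6 of the 14 were below 0 in Ishikawa cells, beside 8772 of 18417 genes. In HEC-1A cells 12 were, beside 8790 of 18417. The medians were 0.08 and -0.17, beside 0.01 over all genes in each line. EHD1, an endocytic relative of EHD2, had differences of -0.34 and -0.55 in Ishikawa and HEC-1A cells, and ROR1, a receptor tyrosine kinase-like protein that binds CAVIN1 and CAV1, had -0.15 and -0.43. FLOT1, a flotillin of caveolin-free membrane domains, had -0.37 and -0.26, and FLOT2 had 0.10 and -0.04. Dynamin 2, the scission GTPase encoded by DNM2, had -0.21 in both lines. The muscle forms CAV3 (-0.06 and -0.26) and CAVIN4 (0.27 and 0.26) had signals between 4.12 and 4.89 on all arrays, below the median of all genes. Differences were 0.16 and -0.20 for PACSIN1, 0.19 and -0.04 for EHD3, -0.14 and -0.16 for EHD4, and 0.24 and -0.10 for NOSTRIN, an adaptor of endothelial nitric oxide synthase. The kinase genes ABL1 and SRC, whose products phosphorylate CAV1, had 0.16 and 0.22, and 0.05 and -0.18, and CSK, the kinase that restrains SRC, had 0.50 and -0.11.

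Between the lines, 6 of the 14 were higher in HEC-1A cells by the limma test and 4 lower, beside 3362 and 3124 of 18417 genes. Of the 14, 9 had at least the median signal, and in a fit limited to such genes 5317 of 9209 passed. No excess is read from the count. ROR1 was 6.70-fold higher in HEC-1A cells, with signals of 8.51 and 8.08 against 5.63 and 5.48 in Ishikawa cells. SRC was 2.60-fold higher (1.38 ± 0.13, SE) and EHD1 2.01-fold (1.01 ± 0.13, SE). FLOT2, ABL1 and FLOT1 were higher by 0.91, 0.70 and 0.60. EHD3 was lower by a log2 difference of -0.80, CSK by -0.66, PACSIN1 by -0.60 and EHD4 by -0.47. CAV3, CAVIN4, DNM2 and NOSTRIN did not pass the test. The mean signals of EHD3, PACSIN1 and NOSTRIN, like those of CAV3 and CAVIN4, were below the median of all genes.

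Clathrin coat genes, which build the other main endocytic coat, showed no member at 2-fold with siEfp among 24 measured. Over all genes 0.804% were 2-fold lower in Ishikawa and 0.271% in HEC-1A cells, so a list of this size need hold none. Their median differences were -0.01 in Ishikawa and 0.03 in HEC-1A cells. The lowest by the mean of the lines were AP2B1, an adaptor subunit (-0.82 and -0.20), HIP1 (-0.46 and -0.28) and EPN2 (-0.34 and -0.25). The highest were EPN1, an epsin that bends the membrane (0.48 and 0.41), SYNJ1 (0.20 and 0.33) and AP2A1 (0.19 and 0.26). Between the lines 6 were higher and 6 lower in HEC-1A cells by the limma test, or 12 of 24 beside 35.2% of all genes. The median size of the difference was 0.38 against 0.25 over all genes. Most of this list, 21 of 24, had at least the median signal, and in a fit limited to such genes 5317 of 9209 passed. The count is therefore not read as an excess.

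Among proteins reported at caveolae, 18 of 20 had a probe set of their own, of which siEfp gave values below 0 for 11 in Ishikawa and for 16 in HEC-1A cells, with medians of -0.10 and -0.17, beside 8772 and 8790 of 18417 genes and medians of 0.01. TGFBR2, a TGF-β receptor, was the only one at 2-fold in a line, at -0.81 in Ishikawa and -1.04 in HEC-1A cells. Its HEC-1A signal went from 9.76 to 8.72, and 0.271% of all genes were 2-fold lower in that line. TGFBR1 had -0.58 and -0.39 and EGFR, the epidermal growth factor receptor, -0.33 in both. At the other end stood KCNMA1, a potassium channel (0.57 and -0.31), AQP1, a water channel (-0.08 and 0.27), and NOS3, endothelial nitric oxide synthase (0.41 and -0.28), all dimmer on average than the median gene. Between the lines 4 were higher and 6 lower in HEC-1A cells by the limma test, or 10 of 18 beside 35.2% of all genes. Of the 18, 8 had at least the median signal, and in a fit limited to such genes 5317 of 9209 passed. This count is not read as an excess either.

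The genes whose pattern over the 4 arrays was most like that of CAV1 were sought among the genes of at least a median signal, by the Euclidean distance between log2 profiles centred on their own means. Of 9208 candidates HERPUD2, at a distance of 0.10, came before CAVIN1 at 0.39, followed by HSD17B12, of fatty acid elongation, at 0.41, the small GTPase gene RAB3B at 0.45 and TEAD1, a transcription factor of the Hippo pathway, at 0.52. HERPUD2 had signals of 8.75 and 7.57 in Ishikawa and of 10.42 and 9.08 in HEC-1A cells, with differences of -1.18 and -1.34. For CAVIN1 the closest were CAV1, HERPUD2 at 0.46, PMAIP1, a BCL2 family member, at 0.52, RRAS, a small GTPase, at 0.53 and LRRN4 at 0.61. The distance includes the siEfp contrast that chose CAV1 and CAVIN1, and with 4 arrays it is a description only.

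Genes next to CAV1 and CAVIN1 on their chromosomes had no siEfp difference of the size seen for these 2. CAV1 and CAVIN1 were picked on this contrast. Only 0.804% of all genes were 2-fold lower in Ishikawa and 0.271% in HEC-1A cells, so nothing is read from the absence among neighbours. CAV1 and CAV2 are neighbours on chromosome 7, and the nearest 3 measured protein-coding genes on each side of the pair are MDFIC, TFEC and TES and then MET, CAPZA2 and ST7. In order, their siEfp differences were -0.00, 0.66, 0.01, 0.51, 0.15 and 0.04 in Ishikawa cells. In HEC-1A cells they were 0.01, -0.06, 0.18, -0.15, 0.03 and 0.11. TFEC had a mean signal below the median of all genes. MET, the hepatocyte growth factor receptor, alone of the 6 passed the limma test between the lines, beside 35.2% of all genes. Its log2 difference was 0.57 (limma adjusted p = 0.0472), with 0.90 among siControl and 0.24 among siEfp arrays. Around CAVIN1 on chromosome 17 the lowest of 6 neighbours in Ishikawa cells was STAT3 at -0.09, and in HEC-1A cells HSD17B1 at -0.36 and STAT5B at -0.28, against -1.10 and -1.42 for CAVIN1. STAT5A alone of these 6 passed the test between the lines, beside 35.2% of all genes. It was lower in HEC-1A cells by a log2 difference of -0.70, opposite to CAVIN1, and its mean signal was below the median of all genes.

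**Figure D4:**
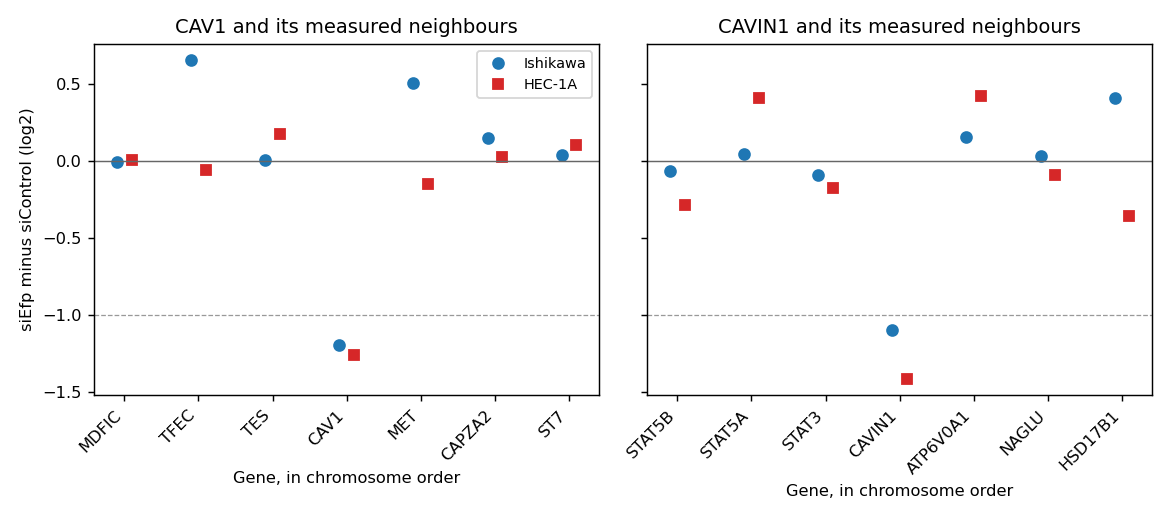
Difference of log2 signal between siEfp and siControl (y axis) for CAV1, left, and CAVIN1, right, with 3 measured protein-coding genes on each side in chromosome order (x axis). Blue circles are Ishikawa and red squares HEC-1A cells, 1 array per condition, and the dashed line marks 2-fold lower. CAV1 and CAVIN1, picked on this contrast, lie below the line in both lines, and the neighbours lie between -0.36 and 0.66.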

How the data were processed

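The deposited signals were log2 values, 1 for each probe set, that the authors computed by RMA (background correction, quantile normalization between arrays and probe summary) in Expression Console of Affymetrix. No source used here gives versions or a build. A shift common to all genes would be lost in this normalization. Arrays of 1 line correlated at 0.992 and 0.993 over 33297 probe sets. Of these, 19460 were paired with 1 symbol, 1754 with several and 12083 with none by the platform annotation. Probe sets of 1 gene were averaged (769 genes had more than 1). The siEfp differences subtract the siControl array of the same line and were counted at 2-fold. Line differences were fitted with limma 3.58.1 in R 4.3.3 on 4 arrays with siRNA as a block (1 residual degree of freedom), adjusted over 18417 genes (Benjamini-Hochberg, adjusted p under 0.05), and the script was tested on simulated data. Other steps used Python 3.11.15.

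The members and lists were chosen with earlier results of these data known. Named genes are the 8 members, TRIM25, ESR1, all other caveola genes, 3 at each end and those past 2-fold of the other lists, 5 genes most like CAV1 and CAVIN1 and 3 neighbours on each side. Alternatives were centring, a second quantile normalization, the brightest probe set, a 1.5-fold threshold, and, in limma, a fit without the block, a variance trend on intensity, leaving out dim genes and an adjusted p under 0.1. With no replicates, an untested value was counted as changed from 0.1 (log2).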

Additional observations from a re-analysis of the deposited data

Results flagged for a closer look

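Of the members, the listed caveola genes, the named genes of the other lists, ESR1 and the chromosomal neighbours, 8 had siEfp differences of opposite sign in the 2 lines, each of at least 0.1 on the log2 scale, and none of these differences between the lines was tested. As HEC-1A minus Ishikawa effect, the value was -0.32 for PACSIN3, -0.37 for PACSIN1, -0.61 for CSK, -0.88 for KCNMA1, -0.69 for NOS3, -0.66 for MET, -0.77 for HSD17B1 and 0.58 for ESR1. CAVIN3, at 0.098 in Ishikawa and -0.288 in HEC-1A cells, was just under that size. Each rests on 1 array per condition, and PACSIN1, KCNMA1, NOS3 and ESR1 were dimmer on average than the median gene. The share of all 18417 genes that meet the same rule was not counted, so nothing is read from the number 8. Over all genes the middle 95% of the HEC-1A minus Ishikawa effect ran from -0.63 to 0.66. PACSIN3, PACSIN1, CSK and ESR1 lay inside that range, and KCNMA1, NOS3, MET and HSD17B1 outside it. Genes picked for opposite signs have wider gaps by the choice itself, so nothing is read from how many lay outside.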

How the results depend on the processing

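The numbers of members at least 2-fold lower with siEfp in each line, passing the test between the lines and at least 2-fold apart under both siRNAs stayed within 1.5 times under the alternatives tried for each. Without the siRNA block 3 of 7 members passed the limma test between the lines, beside 5156 of 18417 genes. CAV1 was then no longer among those higher in HEC-1A cells (limma adjusted p = 0.0565). Without dim genes CAVIN2 was left out, and 3 of the 6 tested members passed, beside 5317 of 9209 genes. CAVIN1, among those that passed, was kept only through its HEC-1A signals, as both its Ishikawa signals were under the cut. In that setting the share of members was not above the share of all genes. A second quantile normalization moved no member value by more than 0.07. At a 1.5-fold threshold 686 genes were lower in Ishikawa and 375 in HEC-1A cells, against 148 and 50 at 2-fold, while the members counted as lower were still 2 in each line. The number of arrays limits the precision.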
